A study of Mus musculus with 6 samples.

Results

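The 9 genes described here encode the contractile apparatus of vascular smooth muscle: Acta2, Myh11, Myl9, Mylk, Cnn1, Tagln, Smtn, Lmod1 and Des. They were chosen by name, and all 9 were found among the 17030 genes of the deposited table. Skeletal muscle of 6 LLC (Lewis lung carcinoma) tumour-bearing male C57BL/B6 mice was the source of the mononuclear cells whose RNA was sequenced. In 3 mice, called Pax7-CreERT here, the genotype was Pax7 Cre ErT x IKKbfl/fl, so that a tamoxifen-activated Cre driven by Pax7, a transcription factor of muscle satellite cells, could delete the floxed gene of the NF-kB kinase IKKb. The other 3 mice, called controls, were IKKbfl/fl without Cre. All 6 carried the floxed alleles and the tumour and received tamoxifen on days 10 to 14 after tumour cell injection. The labels give no age, and no mouse carried Cre without floxed alleles, so an effect of Cre itself and an effect of the deletion cannot be told apart.

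In smooth muscle cells, myosin built from the heavy chain Myh11 and the regulatory light chain Myl9 pulls on filaments of the alpha-smooth muscle actin Acta2. Contraction starts when calcium and calmodulin activate the kinase encoded by Mylk, which phosphorylates the light chain. Calponin (Cnn1), transgelin (Tagln) and smoothelin (Smtn) bind the actin filaments, leiomodin (Lmod1) nucleates them, and desmin (Des) forms the intermediate filaments that tie the apparatus together. In muscle tissue the genes are known from the walls of arterioles and venules; Acta2 and Tagln are also made by some pericytes and activated fibroblasts, and Des by myofibres and satellite cells. Many of them are activated by serum response factor (Srf) and its coactivators of the myocardin family at a DNA element called the CArG box, a CC and a GG around a core of A and T.

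For that reason the members' promoters were read for the element. RefSeq windows of 300 bases, 250 before and 50 after the start, were found for 7 of the 9 genes (GRCm38.p6), and all 7 began at the start that the deposited table gives. An exact CArG box, which reads alike on both strands, was found in 1 of the 7, Myl9, against 1.63% of 32851 windows of all genes. A box with 1 letter off was found in Acta2, Myl9 and Lmod1, against 19.9% of all windows. The windows of Cnn1, Mylk, Smtn and Des held neither form, which says only that these letters are not in these windows. Each gene was read at 1 start only, although Mylk has 8 annotated transcripts, so any further start within a gene was not covered. The sequences given are those of Myl9, which holds an exact box, of Acta2, which holds only 1-off boxes, and of Cnn1, the member with the greatest difference between the genotypes, which holds none; capitals mark exact or 1-off boxes, and each reads 5′ to 3′ on its gene's strand (Acta2, chr19:34255324-34255623, minus; Myl9, chr2:156775214-156775513, plus; Cnn1, chr9:22099003-22099302, plus).
Acta2: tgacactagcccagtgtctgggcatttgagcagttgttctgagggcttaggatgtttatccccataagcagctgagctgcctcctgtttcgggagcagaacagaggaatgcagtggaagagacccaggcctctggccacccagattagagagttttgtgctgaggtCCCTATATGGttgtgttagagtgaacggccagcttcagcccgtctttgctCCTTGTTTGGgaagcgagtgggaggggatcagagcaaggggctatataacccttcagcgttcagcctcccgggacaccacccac
Myl9: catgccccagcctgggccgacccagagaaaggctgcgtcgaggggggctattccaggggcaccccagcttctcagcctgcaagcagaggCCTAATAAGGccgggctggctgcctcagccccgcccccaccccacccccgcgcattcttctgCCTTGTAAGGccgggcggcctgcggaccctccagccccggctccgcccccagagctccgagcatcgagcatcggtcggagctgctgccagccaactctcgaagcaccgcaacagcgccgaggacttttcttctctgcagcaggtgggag
Cnn1: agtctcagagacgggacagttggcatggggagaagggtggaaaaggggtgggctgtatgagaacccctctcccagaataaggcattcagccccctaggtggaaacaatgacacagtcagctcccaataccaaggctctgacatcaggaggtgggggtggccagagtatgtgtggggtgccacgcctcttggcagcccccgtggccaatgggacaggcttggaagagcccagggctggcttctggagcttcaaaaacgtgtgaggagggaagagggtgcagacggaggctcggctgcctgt
In Acta2 the capitals begin 84 and 34 bases before the start. In Myl9 the exact box begins 161 bases before the start and the 1-off box 99 bases before it.

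Expression was deposited as CPM (read counts scaled so that each library sums to 1000000). Depths estimated from the values ran from 4913000 to 13355000 reads in the Pax7-CreERT libraries and from 4054000 to 7423000 in the controls. Control replicate 3 was the shallowest library, and haemoglobin made up 12.6% of its CPM, against 1.84% to 4.83% in the other 5. The cell mixture was rich in vessel-associated transcripts: the pericyte gene Rgs5 stood at 6849 to 8759 CPM with Cre and at 5338 to 7024 CPM in the controls. The endothelial gene Pecam1 stood at 1943 to 2244 CPM with Cre and 2073 to 2645 CPM in the controls, and the satellite cell gene Pax7 at 14.4 to 19.3 CPM with Cre and 10.9 to 21.6 CPM in the controls. Transcripts of heart muscle, which the preparation should lack, summed to 2.44 to 4.73 CPM over 5 markers with Cre and 1.48 to 3.10 CPM in the controls.

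All 9 contractile genes had higher mean CPM in the Pax7-CreERT mice, and none of the 9 passed the test over all genes. In replicate order, their CPM summed to 2712, 3374 and 3009 with Cre, against 2385, 2689 and 2319 in the control mice. The groups did not overlap, although Pax7-CreERT replicate 1 and control replicate 2 lay close together. The sums averaged 3032 ± 332 CPM with Cre, against 2464 ± 197 CPM in the controls (SD, n = 3 each). On the scale of log2(CPM + 1), the differences, Pax7-CreERT minus control, ran from 0.11 for Lmod1 to 0.78 for Cnn1 with a median of 0.39, against a median of 0.09 over the 14763 genes tested, of which 68% had a difference above 0. In limma with Benjamini-Hochberg adjustment over all 14763 genes, the adjusted p of the members lay between 0.891 and 0.933. That fit called 0.00677% of all genes, which is 1 gene and no member. At an unadjusted p under 0.05 stood 4 members, Cnn1, Des, Myl9 and Acta2, all higher with Cre, where 4.58% of all genes stood as higher. The count was 2 with TMM factors or without Pax7-CreERT replicate 2 or 3. It was 5 with quantile scaling or with CPM without haemoglobin genes, and 6 without control replicate 2. The groups did not overlap for 4 members, Cnn1, Des, Myl9 and Myh11, where 8.69% of all genes were higher with no overlap and 2.28% lower. The members may come from the same cells and vary together, so these are not 9 separate observations. In a mixed preparation more cells of a type and more RNA per cell cannot be told apart.

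**Figure D1:**
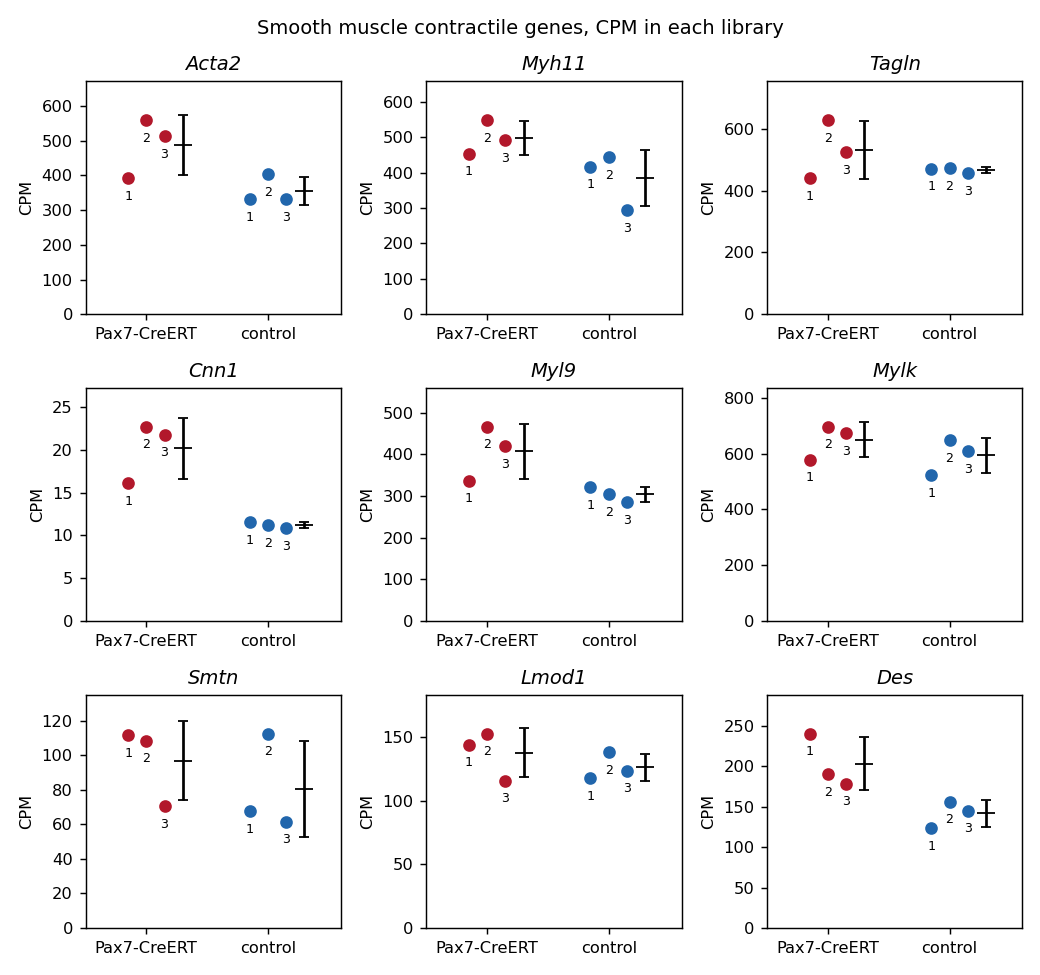
CPM of the 9 contractile genes in each library, with the Pax7-CreERT mice (red) left of the controls (blue) and the replicate number under each point; black bars are the mean and SD of 3 mice, and every axis starts at 0. The groups do not overlap for Cnn1, Myl9, Myh11 and Des, and they overlap for the other 5 genes.

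Actin and both myosin genes had higher means with Cre, and none passed the adjusted test. Acta2, on chromosome 19 of mm10 at 34240336 to 34255373, measured 391, 560 and 513 CPM with Cre, against 332, 403 and 332 CPM in the controls. Pax7-CreERT replicate 1 lay below control replicate 2, and the other values separated by genotype. The log2 fold change was 0.45 (SE 0.17, 95% interval 0.07 to 0.82, unadjusted p = 0.0249, exact permutation p = 0.2; the smallest p possible with 3 mice a group is 0.1). Myh11, on chromosome 16 at 14194527 to 14291408, measured 453, 549 and 491 CPM with Cre, against 417, 443 and 294 CPM in the controls. Its groups did not overlap, but Pax7-CreERT replicate 1 and control replicate 2 were close and control replicate 3 was by far the lowest. The log2 fold change was 0.39 (SE 0.18, 95% interval -0.01 to 0.79, unadjusted limma p = 0.0532, exact permutation p = 0.1), and it was 0.21 without control replicate 3. Myl9, on chromosome 2 at 156775464 to 156781657, measured 337, 466 and 419 CPM with Cre, against 321, 304 and 286 CPM in the controls. Every Pax7-CreERT library lay above every control, and the difference was 0.41 on the log2 scale (SE 0.15, 95% interval 0.07 to 0.75, unadjusted p = 0.0225, exact permutation p = 0.1).

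The kinase gene did not separate the genotypes. Mylk, on chromosome 16 at 34784950 to 35002434, measured 578, 697 and 674 CPM with Cre, against 523, 649 and 609 CPM in the controls. The groups overlapped, and the log2 fold change was 0.13 (SE 0.15, 95% interval -0.21 to 0.47, exact permutation p = 0.4). It was 0.04 without control replicate 1 or with TMM factors, and 0.21 without Pax7-CreERT replicate 1. The antisense genes 1700119H24Rik and E130310I04Rik overlap Mylk in the annotation and are also in the table; whether reads were counted by strand is not given in the sources used here, so their reads and those of Mylk may not be separable.

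Among the proteins that bind the actin filament, Cnn1 had the greatest difference of all 9 members. Cnn1, on chromosome 9 at 22099253 to 22109221, measured 16.1, 22.7 and 21.8 CPM with Cre, against 11.5, 11.2 and 10.9 CPM in the controls. All 3 Pax7-CreERT libraries were well above the tight cluster of controls. It averaged 20.2 ± 3.58 CPM with Cre, against 11.2 ± 0.340 CPM without (SD, n = 3 each), a difference of 0.78 on the log2 scale (SE 0.18, 95% interval 0.38 to 1.18). Its unadjusted limma p of 0.00147 was the 18th smallest of 14763 and gave an adjusted p of 0.891; the exact permutation p was 0.1. Cnn1 was also the least abundant member, with an estimated 153, 303 and 107 reads in the Pax7-CreERT replicates and 69, 83 and 44 reads in the controls. The coefficient of variation of the controls, 3.04%, was smaller than the counting error of their reads, 11.0% to 15.1%, so the spread seen among 3 controls understates the error of a Cnn1 value.

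The other actin-binding members overlapped between the genotypes. Tagln, on chromosome 9 at 45929628 to 45936058, measured 441, 629 and 525 CPM with Cre, against 471, 472 and 457 CPM in the controls. The lowest and the highest value were both from Pax7-CreERT mice, and the log2 fold change of 0.17 (SE 0.16, 95% interval -0.18 to 0.52) was 0.04 without Pax7-CreERT replicate 2 and 0.30 without replicate 1. The opposite strand of Tagln carries the gene Pcsk7 in the annotation, with the same limit on counting as for Mylk. Smtn, on chromosome 11 at 3517522 to 3539292, measured 112, 108 and 70.6 CPM with Cre, against 67.5, 112 and 61.4 CPM in the controls. The libraries fell into a high and a low set that did not follow genotype, with Pax7-CreERT replicates 1 and 2 and control replicate 2 high. The log2 fold change of 0.29 (SE 0.25, 95% interval -0.26 to 0.83) was 0.12 without control replicate 3, 0.55 without control replicate 2, 0.50 without Pax7-CreERT replicate 3 and 0.005 with both Pax7-CreERT replicate 1 and control replicate 3 left out. Lmod1, on chromosome 1 at 135324813 to 135368065, measured 144, 153 and 116 CPM with Cre, against 118, 138 and 124 CPM in the controls. Its groups overlapped, and its log2 difference was 0.11 (SE 0.14, 95% interval -0.21 to 0.43). Leaving out Pax7-CreERT replicate 2 gave 0.03, leaving out replicate 3 of that group gave 0.23, and TMM factors gave 0.02.

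Des, on chromosome 1 at 75360292 to 75368579, measured 241, 190 and 179 CPM with Cre, against 123, 156 and 145 CPM in the controls. The groups did not overlap, and Pax7-CreERT replicate 1 was the highest, which held for no other member. The log2 fold change was 0.51 (SE 0.15, 95% interval 0.17 to 0.86, unadjusted p = 0.00778, adjusted p = 0.891, exact permutation p = 0.1) and 0.39 without that library. Myofibre transcripts were also highest in Pax7-CreERT replicate 1. All 22 myofibre markers had higher means with Cre, 15 of them at an unadjusted p under 0.05 and 0 after adjustment. Of all tested genes 68% had higher means and 4.58% stood as higher at that p. The 22 markers summed to 3207, 2227 and 2274 CPM with Cre, against 1607, 1832 and 1065 CPM in the controls, and no marker was listed at 0 in all libraries. Desmin is made by myofibres too, and their part in the difference of Des was not tested.

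**Figure D2:**
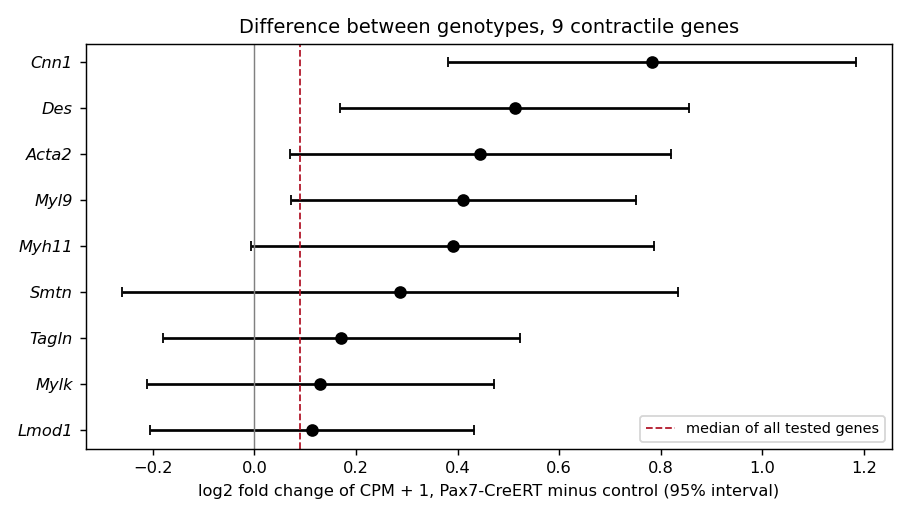
Log2 fold change of CPM + 1, Pax7-CreERT minus control, for each contractile gene, with its 95% interval from limma on 3 mice per group; the dashed line is the median of all 14763 tested genes. The intervals of Cnn1, Des, Acta2 and Myl9 lie above 0 and those of the other 5 genes include it.

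The fold changes all stayed above 0 when libraries were left out. Over the 6 fits that each lack 1 library, Cnn1 ran from 0.69 to 0.93, Des from 0.39 to 0.60, Acta2 from 0.34 to 0.60 and Myl9 from 0.31 to 0.54. Cnn1 and Des kept an unadjusted p under 0.05 in all 6 such fits, Myl9 in 4 of them and Acta2 in 3. Among these fits, Myh11 and Smtn, which were above 0.05 with all libraries, were under it only without control replicate 2. With all libraries, Myh11 was also under it with quantile scaling (limma unadjusted p = 0.0318) and with CPM without haemoglobin genes (limma unadjusted p = 0.0465). The median over the 9 genes was 0.21 without control replicate 3 and between 0.31 and 0.50 without any other single library.

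**Figure D3:**
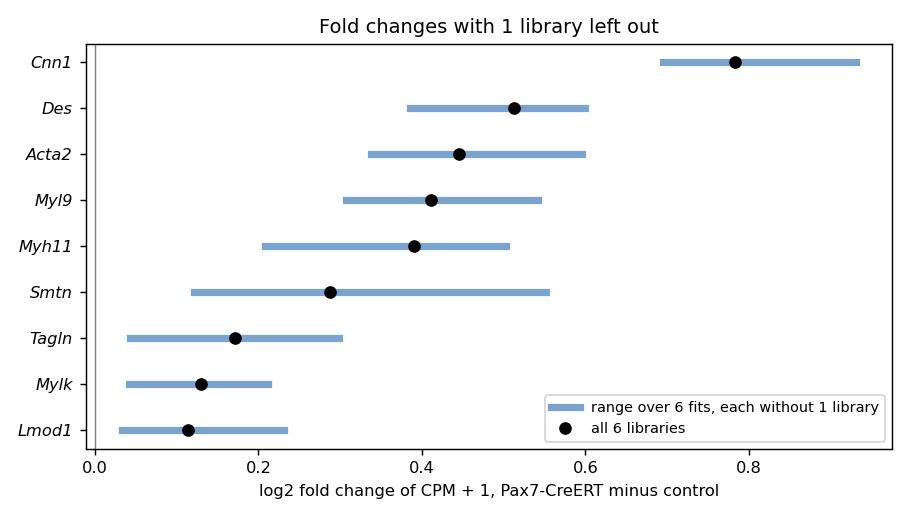
Log2 fold change of CPM + 1, Pax7-CreERT minus control, for each contractile gene with all 6 libraries (black points) and its range over 6 fits that each leave out 1 library (blue bars). Every range lies above 0, from 0.69 to 0.93 for Cnn1 down to 0.03 to 0.23 for Lmod1.

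The members differed in how closely they followed each other across libraries. Pax7-CreERT replicate 2 held the highest value of 7 of the 9 genes, and control replicate 3 held the lowest value of 5. The root mean square difference between 2 centred log2 profiles over the 6 libraries was smallest for Acta2 and Myl9 (0.11), for Tagln and Mylk (0.12) and for Tagln and Myl9 (0.13). It was greatest for Cnn1 and Smtn (0.48). These distances are descriptions over 6 libraries that share the same depth and scaling, so part of any likeness is common to all genes of a library.

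Ratios within a library do not depend on its scaling. Tagln, an abundant member with closely spaced control values, was taken as the denominator, a choice made after the values were seen. Its coefficient of variation was 1.78% in the controls and 17.7% with Cre, so the narrow spread of control ratios depends in part on that choice. Cnn1 stood at 3.65%, 3.61% and 4.15% of the Tagln CPM with Cre, against 2.45%, 2.37% and 2.37% in the controls. The ratio was thus 3.80% ± 0.302 with Cre and 2.40% ± 0.0441 without it (SD, n = 3 each, exact permutation p = 0.1, the smallest possible). Of the 14762 other tested genes 1.65% had a ratio to Tagln that was higher with Cre with no overlap, among them Cnn1, Acta2 and Myl9. For CPM itself that share was 8.69%. A ratio to Tagln can narrow the spread of genes that vary with it and widen that of others. The share of 1.65% is therefore not a like background for the members. Acta2 stood at 88.8%, 89.1% and 97.7% of Tagln with Cre and 70.5%, 85.3% and 72.5% in the controls. Mylk stood at 131%, 111% and 128% with Cre and 111%, 137% and 133% in the controls, with overlapping groups. Set against the mean of the 7 other smooth muscle members without Des, Cnn1 was higher in every Pax7-CreERT library than in any control. The difference was 0.50 on the log2 scale (exact permutation p = 0.1), and no other member separated by genotype. These ratios reuse the same Cnn1 values, and Cnn1 was singled out for its greatest difference, which favours separation. How many of all genes separate against this mean, or against single members other than Tagln, was not counted. In ratios to single members, Cnn1 did not overlap between the genotypes against 5 of the 8 others. It overlapped against Myh11 (exact permutation p = 0.2), Smtn and Des (exact permutation p = 0.4 each). Of all 36 pairs of members, 10 did not overlap. CPM ratios between genes also carry their lengths, so only the comparison between libraries is read here.

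**Figure D4:**
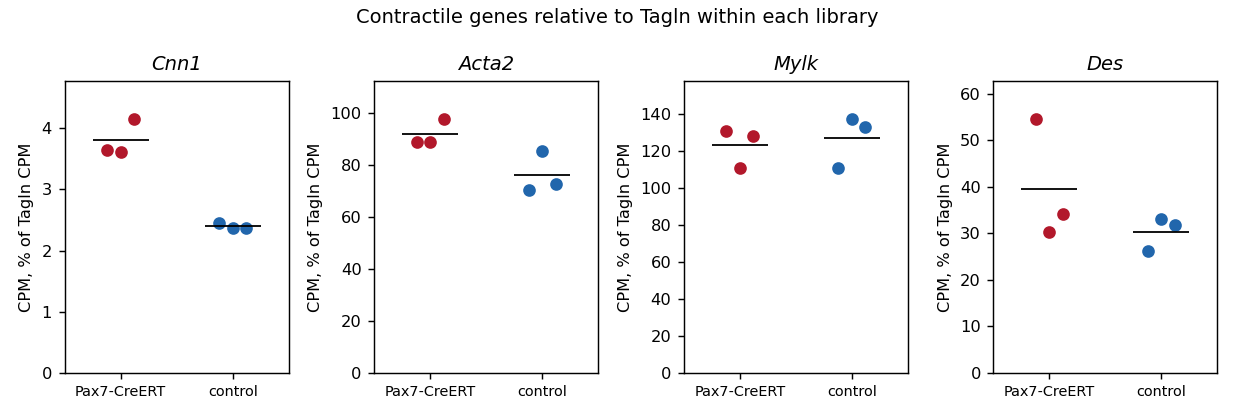
CPM of Cnn1, Acta2, Mylk and Des as a percentage of Tagln CPM in the same library, with Pax7-CreERT mice (red) left of controls (blue), black lines at the means of 3 mice and axes from 0. Cnn1 stands at 3.61% to 4.15% with Cre and 2.37% to 2.45% in the controls, while Mylk and Des overlap.

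Levels were compared between genes per kilobase of annotated exon. Myl9 was the most abundant, at 351 ± 56.4 CPM per kb in the Pax7-CreERT mice and 261 ± 15.3 in the controls (SD, n = 3 each). Tagln followed at 267 ± 47.3 CPM per kb with Cre and 235 ± 4.19 in the controls, and Acta2 at 222 ± 39.6 with Cre and 162 ± 18.6 in the controls; in the Pax7-CreERT mice Acta2 and Tagln lay within their spread of each other. A middle tier was formed by Myh11 (65.5 ± 6.33 CPM per kb with Cre, 50.6 ± 10.5 in controls), Mylk (57.7 ± 5.58 with Cre, 52.7 ± 5.69 in controls) and Des (54.1 ± 8.77 with Cre, 37.7 ± 4.46 in controls). Myh11 and Mylk were not separated beyond their spread in the controls. Lmod1 (34.8 ± 4.89 with Cre, 32.0 ± 2.68 in controls), Smtn (22.1 ± 5.20 with Cre, 18.4 ± 6.37 in controls) and Cnn1 (7.38 ± 1.31 with Cre, 4.09 ± 0.124 in controls) came last. The order of levels was the same in both groups except that Mylk stood above Myh11 in the controls. Lengths are unions of all annotated exons, 11.3 kb for Mylk with its 8 transcripts, so a gene used mainly through short transcripts is understated.

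Most contractile proteins have relatives that are made in other cells. Of 26 paralogues 24 were tested and 0 passed; 20 had a higher and 4 a lower mean with Cre, or 19 and 5 with TMM factors, and the median log2 fold change was 0.32. Over all tested genes 68% had higher means. The paralogue list includes genes of striated muscle. Of these the skeletal actin gene Acta1 and the skeletal light chain gene Mylpf, both also counted as myofibre markers, had log2 fold changes of 0.88 and 0.99, Mylk2 of 0.70 and Lmod2 of 0.62. The cardiac kinase gene Mylk3 stood at -1.03, with 1.58, 1.42 and 3.66 CPM with Cre, against 4.18, 1.89 and 15.5 CPM in the controls. The cytoplasmic actin Actb was far above Acta2 per length, at 1350 ± 152 CPM per kb with Cre and 1146 ± 142 in the controls, and the non-muscle myosin Myh9 was near Myh11, at 60.6 ± 7.98 CPM per kb with Cre and 51.3 ± 3.35 in the controls. The enteric smooth muscle actin Actg2 was scarce, at 1.35 ± 0.792 CPM per kb with Cre and 0.769 ± 0.173 in the controls. Of the non-muscle calponins, Cnn3 measured 77.0 ± 3.52 with Cre and 75.4 ± 7.65 CPM per kb in the controls, and Cnn2 34.7 ± 6.73 with Cre and 30.2 ± 7.62 in the controls. The transgelin Tagln2, made in many cell types, had a log2 fold change of -0.18 (limma adjusted p = 0.899). The desmin partner Synm measured 229, 258 and 217 CPM with Cre, against 185, 165 and 150 CPM in the controls, with no overlap (log2 fold change 0.49, limma adjusted p = 0.891). Little sequence is shared exactly with relatives: of all 50-base windows of the transcript, 0.352% of Acta2 and 0.400% of Myh11 occur in another gene's transcripts, and 0% of the other 7 members.

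Genes that work with the apparatus were read from 3 lists (partners of the filaments, contraction signalling and regulators), in which 0 genes passed after adjustment. Their counts are to be read beside those of all 14763 tested genes. Of these, 68% were higher with Cre, 4.58% stood as higher at an unadjusted p under 0.05, and 8.69% were higher with no overlap. With TMM factors 7518 were higher and 7245 lower. Of 21 partners of the filaments 19 had a higher mean with Cre and 2 a lower one (17 and 4 with TMM factors), with a median log2 fold change of 0.27; 6 stood at an unadjusted p under 0.05. Tpm2, a tropomyosin shared with striated muscle, measured 311, 220 and 220 CPM with Cre, against 171, 178 and 133 CPM in the controls. It averaged 250.4 ± 52.6 CPM with Cre, against 161 ± 23.7 CPM in the controls (log2 fold change 0.63). Its highest value was in Pax7-CreERT replicate 1, as for Des and unlike the other members. Myl6, the essential light chain, and Mustn1 stood at -0.09 and -0.04. Of 28 genes that signal contraction 26 were higher and 2 lower (24 and 4 with TMM factors), with a median of 0.29 and 6 at an unadjusted p under 0.05. Without control replicate 3 the median was 0.18, with 23 higher and 5 lower. The alpha-1A adrenergic receptor gene Adra1a measured 15.9, 14.0 and 12.8 CPM with Cre, against 10.0, 6.33 and 7.89 CPM in the controls. Its groups did not overlap (log2 fold change 0.76, SE 0.20, limma adjusted p = 0.891). The calcium channel subunit gene Cacnb2 measured 14.8, 13.9 and 13.0 CPM with Cre, against 9.03, 9.30 and 9.13 CPM in the controls, again with no overlap (log2 fold change 0.55). The phosphatase subunit Ppp1cb (log2 fold change -0.17) and the GTPase gene Rhoa (-0.06) had lower means.

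Among 15 regulators of the smooth muscle programme 14 had higher means and 1 a lower one (12 and 3 with TMM factors). The median log2 difference was 0.19, and 3 stood at an unadjusted p under 0.05. The list was not split into activators and repressors of the programme, so its counts describe neither. Over all tested genes 68% had higher means and 4.58% stood as higher at that p. Srf, the factor that binds the CArG box, measured 91.6, 98.6 and 89.4 CPM with Cre, against 68.2, 78.4 and 59.2 CPM in the controls. Every Pax7-CreERT library lay above every control (log2 fold change 0.44, SE 0.14, unadjusted p = 0.00943, limma adjusted p = 0.891). Its coactivator Myocd, which marks smooth and heart muscle, measured 10.5 ± 2.56 CPM with Cre and 8.64 ± 1.72 CPM in the controls (SD, n = 3 each, log2 fold change 0.24). Fhl2, a LIM protein that binds Srf, measured 4.10, 3.44 and 3.05 CPM with Cre, against 2.01, 2.16 and 0.247 CPM in the controls. The value of control replicate 3, the shallowest library, is that of 1 estimated read, so Fhl2 lies near the floor. The related coactivator Mrtfa had the lower mean, with a log2 fold change of -0.12. The median of these regulators was 0.10 with TMM factors.

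Pericytes, the other mural cells of small vessels, share several of these genes. Of 14 pericyte markers 12 had higher means and 2 lower ones (12 and 2 with TMM factors), the median log2 difference was 0.24, and 2 stood at an unadjusted p under 0.05; 0 passed. The median was 0.16 without Pax7-CreERT replicate 2 and 0.15 with TMM factors. Among all tested genes 68% had higher means and 4.58% stood as higher at that p. The pericyte markers summed to 8649 to 10968 CPM with Cre and to 6906 to 8759 CPM in the controls, and none was listed at 0 in all libraries. Vitronectin (Vtn) measured 99.4 ± 16.9 CPM with Cre and 70.3 ± 2.77 CPM in the controls, and the NG2 proteoglycan gene Cspg4 measured 173 ± 25.9 CPM with Cre and 123 ± 21.2 CPM in the controls (SD, n = 3 each), while Gja4 and Cox4i2 stood at log2 fold changes of -0.03 and -0.02. The members' median position in a library, on the centred log2 scale, was 0.06, 0.34 and 0.12 in the Pax7-CreERT replicates and -0.24, -0.04 and -0.29 in the controls. That of the pericyte markers was 0.12, 0.25 and -0.01 with Cre and -0.10, -0.07 and -0.19 in the controls. Both were highest in Pax7-CreERT replicate 2 and lowest in control replicate 3. Acta2 stood at 0.0566, 0.0639 and 0.0749 of Rgs5 with Cre and at 0.0499, 0.0574 and 0.0622 in the controls, so relative to this pericyte gene the groups overlapped (exact permutation p = 0.3). Myh11 relative to Rgs5 also overlapped (exact permutation p = 0.2). Cnn1, the member with the greatest difference, did not (exact permutation p = 0.1, the smallest possible). How many of all genes separate relative to Rgs5 was not counted, so the Cnn1 ratio has no background to be read against.

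The marker sums of other cell types were greatest in libraries other than Pax7-CreERT replicate 2. Their positions were not always unlike those of the contractile genes. In Pax7-CreERT replicate 2 the median position was 0.35 for the fibroblast markers and 0.34 for the contractile genes. The myofibre markers were lowest in control replicate 3, at -0.84, as the contractile genes were. Of 9 tested fibroblast and myofibroblast markers 7 had higher means and 2 lower ones, also with TMM factors (6 at an unadjusted p under 0.05, 0 passed), and the median log2 difference was 0.75. It was 0.40 without Pax7-CreERT replicate 1. Over all tested genes 68% had higher means and 4.58% stood as higher at an unadjusted p under 0.05. Col1a1 measured 224, 111 and 56.6 CPM with Cre, against 32.6, 52.5 and 34.8 CPM in the controls, and Dcn had a log2 fold change of -0.06. The 10 markers in the table summed to 4511, 2446 and 2013 CPM with Cre, against 2044, 1888 and 3308 CPM in the controls, none at 0 in all libraries. Their sum was greatest in Pax7-CreERT replicate 1, where 6 of the 9 contractile genes had their lowest Cre value. Satellite cell markers summed to 135 to 147 CPM with Cre and 109 to 157 CPM in the controls, endothelial markers to 4180 to 5118 CPM with Cre and 3992 to 5439 CPM in the controls, and leukocyte markers to 125 to 190 CPM with Cre and 136 to 238 CPM in the controls. All 3 sums overlapped between the groups. In these lists 5 of 6, 4 of 6 and 2 of 7 tested genes had higher means (3, 2 and 1 with TMM factors) and 0 passed. The share with higher means over all tested genes was 68%. Red cell markers had lower means in 6 of 6, summing to 16107 to 45520 CPM with Cre, against 24246 to 119343 CPM in the controls. The part of these cell types in the differences of the contractile genes was not tested.

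**Figure D5:**
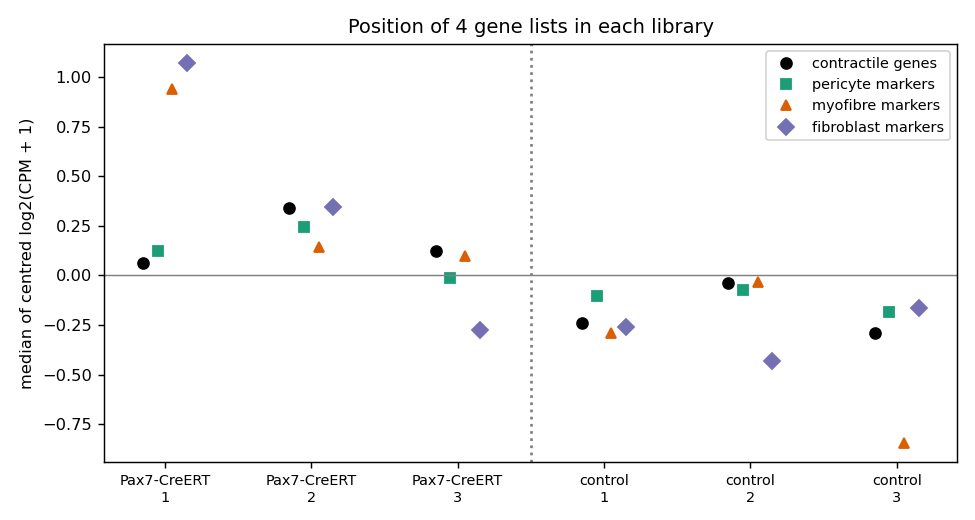
Median of centred log2(CPM + 1) over the 9 contractile genes and over the pericyte, myofibre and fibroblast markers in each library, Pax7-CreERT left of the dotted line and controls right of it. The contractile genes and pericyte markers peak in Pax7-CreERT replicate 2 at 0.34 and 0.25, and the myofibre and fibroblast markers in Pax7-CreERT replicate 1 at 0.94 and 1.07.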

How the data were processed

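Expression was deposited as CPM for 17030 genes, scaled by the authors so that each library sums to 1000000, plus a constant of 0.0001; unit and constant were read from the values and are not given in the sources used here. The submitters' processing notes name Partek, DESeq2 and mm10 without their roles, and the aligner, counting rule and annotation are not given in the sources used here. Ends were taken as 1 base less than in the table, as RefSeq of the same build gives them for Des and Lmod1. Depth was estimated from the step between low values; 92.8% to 93.8% of values up to 20 reads were whole within 0.05 read, below the 95% set for recovering reads, so no count model was used.

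The 14763 genes that reached 1 CPM in 3 or more of the 6 libraries entered limma 3.58.1 (R 4.3.3) as log2(CPM + 1), with a mean-variance trend, genotype as the only term, Benjamini-Hochberg adjustment and a threshold of 0.05; a fold change on this scale understates that of low genes. The fit was tested on simulated data with planted changes larger than that of any member. That test therefore says nothing on whether differences of the members' size can be found. Exact permutation tests are 2-sided. Alternatives were another pseudocount, 2 other filters, TMM-type and quantile scaling, CPM without haemoglobin genes, no trend, array weights and libraries left out. Exon lengths, overlaps and transcripts are from GENCODE M21 and promoters from RefSeq, both of GRCm38 (mm10). Named genes are the members, some of their paralogues and the genes nearest in profile. For the filament partner, signalling, regulator and pericyte lists, up to 2 genes with the smallest p in each direction are also named. Of such genes only Col1a1 and Dcn are named from the fibroblast list, and none by this rule from the other lists. Myocd, Rgs5, Pecam1, Pax7 and the ratios were added after values were seen. Members and lists were chosen with earlier results of these data known. The p-values measure the spread between these mice, about whose litters or batches the labels say nothing.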

Additional observations from a re-analysis of the deposited data

How the results depend on the processing

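All 144 log2 fold changes of the 9 members under the 16 alternatives were above 0 and none was called, with the lowest adjusted p of a member at 0.401. Their median, 0.39 with all libraries, ran from 0.21 (without control replicate 3) to 0.50 over the fits that lack 1 library, was 0.30 with TMM factors and 0.15 without control replicate 3 with TMM factors; the cause of that drop was not tested. The median of all genes was 0.004 with TMM factors and -0.01 in that last fit, against 0.09. The count of genes called over the whole table, 1 in the fit as reported, was 2 with no filter on low values, 2 with both Pax7-CreERT replicate 1 and control replicate 3 left out, and 0 to 1 over the fits that lack 1 library; no member was among them. No paired analysis was possible because the labels carry no replicate numbers: those used here only follow the order of the records and tie no mouse of one group to a mouse of the other. Groups of 3 mice bound what can be resolved: an exact test cannot go below 0.1, and at the estimated depth a Cnn1 value carries a counting error of 5.74% to 15.1%.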

Other observations

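Genes with a profile like that of the contractile genes were looked up among 9418 other genes with a mean of at least 10 CPM, by the root mean square difference from the mean centred log2 profile of the 8 members other than Des over the 6 libraries. The nearest was Cd38, an enzyme that makes calcium-mobilizing messengers, at 0.02 on the log2 scale, against a median of 0.23 over all candidates. Its CPM was 112, 142 and 119 with Cre, against 98.1, 108 and 88.3 in the controls. The next were Commd1, Klhl36, Gdf11, Slc22a15, Scmh1, Spint2 and Myo1e, between 0.049 and 0.057. Nearest to Des were Rftn2 (0.06), Olfml2a (0.06) and the basement membrane collagen gene Col18a1 (0.09). None of the 11 genes passed the limma test over all genes (adjusted p of 0.891 or 0.896), and a match over 6 libraries among so many genes carries no statement about shared function.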
